A study of Mus musculus with 11 samples.

Results

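Transforming growth factor beta (TGF-beta) signalling was examined through 10 genes, chosen by symbol, out of the 31053 genes counted in nuclei of the mouse cortex. They encode 2 ligands (Tgfb1, Tgfb2), 2 proteins that hold or present the latent ligand (Nrros, whose older symbol is Lrrc33, and Ltbp1), both receptor chains (Tgfbr1, Tgfbr2), the signal-carrying Smad2 and Smad3, and the inhibitors Smad7 and Ski. Of these, 9 were found by the symbol given and 1 through its synonym. The question put to the data was where each gene was transcribed, with microglia first, and whether its level moved with tau or with the activity of IKKβ, the kinase encoded by Ikbkb that switches on NF-κB.

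The libraries came from 11 mice, 1 library each, aged 8.39 to 10.85 months, and all had received tamoxifen. The labels give every mouse as female, whereas the study's methods name males alone for its RNA sequencing, and the sex is therefore left unsettled here. Non-transgenic mice (non-Tg, labelled ikbkb+/+, n = 4) carried no tau transgene, and P301S mice (ikbkb+/+;P301S+, n = 3) carried the human mutant tau transgene of the PS19 line. Ikbkb-/-;P301S mice (n = 2) had in addition a floxed Ikbkb removed, and IkbkbCA;P301S mice (n = 2) an active form of IKKβ switched on, in both cases by Cx3cr1-CreERT2. This Cre sits in 1 copy of Cx3cr1, acts in microglia and other cells that use that gene, and was absent from the non-Tg and P301S mice. The mice belonged to 2 breeding lines, floxed (6 mice) and activeIKK (5 mice): all Ikbkb-/-;P301S mice were floxed and all IkbkbCA;P301S mice were activeIKK, while non-Tg (2 and 2) and P301S (2 and 1) held both. Ages were 9.8 to 10.85 months in non-Tg and IkbkbCA;P301S, 9.15 to 10.75 in P301S and 8.39 to 9.15 in Ikbkb-/-;P301S mice, so the last group was younger than every non-Tg and IkbkbCA;P301S mouse.

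TGF-beta is secreted in a latent form, wrapped in its own propeptide, and is held on the cell surface or in the matrix by partners such as Nrros, which serves microglia and other myeloid cells, and Ltbp1. Freed ligand binds Tgfbr2, which activates the kinase Tgfbr1. Tgfbr1 then phosphorylates Smad2 and Smad3, which enter the nucleus with Smad4, while Smad7 blocks the receptor and Ski represses Smad target genes. In the brain the pathway is known for keeping microglia in their resting, tissue-specific state.

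After filtering, 103065 nuclei of 114118 barcodes were kept and clustered, from libraries of 72007219 to 93205362 unique molecular identifiers (UMIs, counted molecules), and any pair of libraries shared 15 to 45 barcodes. Clusters were named from marker genes and are microglia-like, astrocyte-like and so on, with the ending dropped from here. The 5830 nuclei of clusters left unnamed and 190 ependymal or choroid nuclei entered none of the levels or tests below. Although the tissue was labelled brain cortex, 9641 nuclei had the markers of striatal projection neurons. The 4359 microglia (189 to 717 per mouse, 378863 to 1655935 UMIs) had all 9 of their markers detected, with a summed level of 8561 to 10488 CPM (the UMIs of a gene scaled to a common library total) in non-Tg, 8908 to 9418 in P301S, 8525 to 9231 in Ikbkb-/-;P301S and 7342 to 8065 in IkbkbCA;P301S mice. Border macrophage markers summed to 11.3 to 386 CPM in the same nuclei over the non-Tg mice and lay within that range in the other groups. The targeted gene, Ikbkb, stood at 125 to 155 CPM in microglia of non-Tg and 135 to 148 in P301S mice, at 111 and 121 in Ikbkb-/-;P301S mice, the 2 lowest of the 11, and at 162 and 149 in IkbkbCA;P301S mice. Whether the reads counted fall inside the deleted exons was not examined.

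Levels across cell types are given first, as CPM of the summed UMIs of each cell type in each of the 4 non-Tg mice, as mean ± SD. The comparison covered 10 cell types, and because the cell types within a library share that library, the order is a description with no test. By mean level, microglia stood first for 7 of the 10 genes.

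The ligands were divided between cell types. Tgfb1 (ENSMUSG00000002603, chr7:25687002-25705077, plus strand, GRCm38), the ligand long linked to microglia, was at 231 ± 58.6 CPM in microglia (189 to 316), which was 6.28-fold the level in the next type, endothelial cells (36.7 ± 11.2). Mural cells (28.3) overlapped the endothelial values, fibroblasts followed at 10.4, and astrocytes had 2.22. The endothelial, mural and fibroblast levels rest on 12, 13 and 13 UMIs over the 4 mice. The endothelial cluster also had 4 of the 9 microglia markers raised over the median cluster, and the mural cluster 3. The part of this in their levels was not tested. Neurons and oligodendrocytes lay at or below 0.370, and oligodendrocyte precursors (OPC) had no UMI in the non-Tg mice and 6 in all 11 mice. In all 11 mice microglia had the highest Tgfb1 level.

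Tgfb2 (ENSMUSG00000039239, chr1:186622792-186705989, minus strand) had another order. Endothelial cells led in 11 of 11 mice, at 265 ± 137 CPM in non-Tg mice (136 to 405). Astrocytes followed at 65.4 ± 4.69, above mural cells (41.2) and OPC (38.4), whose values overlapped. Microglia were last of the 10 types at 3.62 ± 1.56 CPM, on 8 UMIs in all over the 4 mice, and neurons and oligodendrocytes (4.12 to 10.1) overlapped their neighbours in the order.

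The proteins that hold latent TGF-beta also differed in place. Nrros (ENSMUSG00000052384, chr16:32142785-32165594, minus strand) was at 294 ± 83.3 CPM in microglia (192 to 368), 5.11-fold above endothelial cells (57.5 ± 21.7, on 21 UMIs), and was highest in microglia in all 11 mice. Astrocytes held 23.7 ± 6.14, and the remaining 7 types lay at 7.69 or less. Ltbp1 (ENSMUSG00000001870, chr17:75005568-75392512, plus strand), which ties the latent complex to the matrix, was instead highest in OPC in all 11 mice, at 198 ± 11.5 CPM. Astrocytes followed at 130 ± 17.3, overlapping fibroblasts (66.6 ± 36.9), and inhibitory neurons (40.8 ± 6.43) stood above excitatory neurons (22.3 ± 4.74) with no overlap. Microglia had 8.92 ± 3.12 CPM of Ltbp1, on 19 UMIs.

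Both receptor chains were highest in microglia in every mouse. Tgfbr1 (ENSMUSG00000007613, chr4:47353222-47414931, plus strand) was at 2096 ± 169 CPM in microglia (1923 to 2310), 6.78-fold above fibroblasts (309 ± 70.4). Endothelial cells, OPC and mural cells lay at 61.0 to 74.2 and overlapped, oligodendrocytes were at 53.1 ± 2.81, astrocytes at 45.5 ± 3.58, and the 3 neuron types at 8.48 to 14.3. Tgfbr2 (ENSMUSG00000032440, chr9:116084293-116175360, minus strand) was at 616 ± 111 CPM in microglia (520 to 751), 3.25-fold above endothelial cells (190 ± 66.0), which overlapped fibroblasts (163 ± 26.6). Mural cells were separate at 66.5 ± 14.8. Inhibitory neurons (16.7 ± 2.18) and astrocytes (12.1 ± 2.90) overlapped, and every other type had at most 3.86.

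The Smads that carry the signal were spread more evenly. Smad2 (ENSMUSG00000024563, plus strand) ran from 100 ± 21.8 CPM in microglia to 34.0 ± 3.85 in oligodendrocytes, and each type overlapped the next except at the step from OPC (52.8 ± 7.62) to excitatory neurons (39.2 ± 4.09). Microglia were the highest type in 6 of 11 mice. Smad3 (ENSMUSG00000032402, chr9:63646767-63757994, minus strand) was at 333 ± 49.2 in microglia and 320 ± 25.0 in fibroblasts. Those ranges overlapped, and microglia led in 4 mice and fibroblasts in 7. Excitatory neurons (163 ± 78.7) and striatal projection neurons (136 ± 28.4) came next, whereas inhibitory neurons had 33.2 ± 17.8 and oligodendrocytes 27.3 ± 6.73.

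Of the inhibitors, Smad7 (ENSMUSG00000025880, plus strand) was highest in endothelial cells (248 ± 135 CPM) and oligodendrocytes (230 ± 14.4), which overlapped and led in 3 and 8 of the 11 mice. Microglia had 129 ± 14.97, below all oligodendrocyte values but overlapping those of endothelial cells (112 to 145 against 106 to 423), and the other types at most 54.3. For comparison, Tgfbr2 in oligodendrocytes was at 1.63 ± 1.20. Ski (ENSMUSG00000029050, chr4:155154075-155222592, minus strand) was at 569 ± 102 in microglia (460 to 706), 3.62-fold above fibroblasts (157 ± 23.0), and was highest in microglia in all 11 mice. The remaining 8 types ran from 156 down to 70.4, each overlapping the next.

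**Figure D1:**
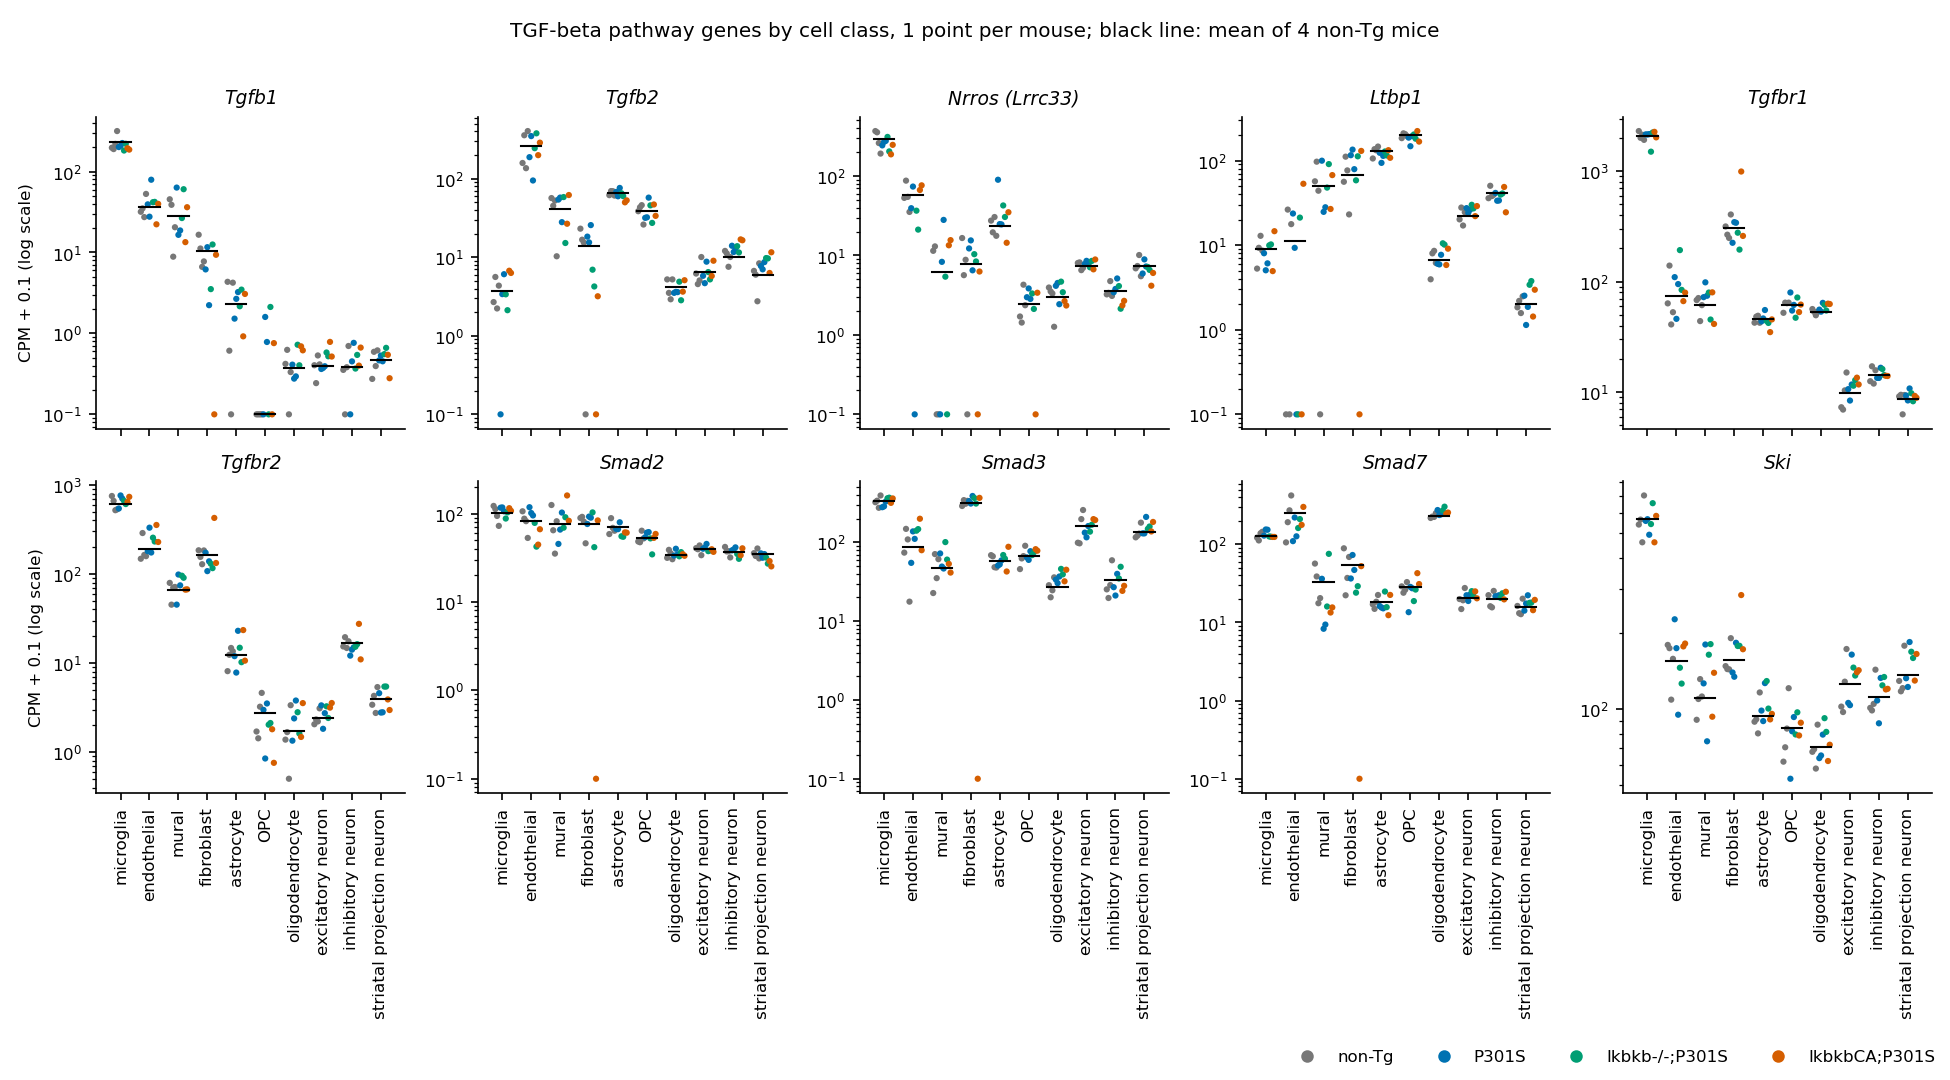
Level of each of the 10 genes (CPM plus 0.1, logarithmic axis) in 10 cell types, 1 point per mouse, with a black line at the mean of the 4 non-Tg mice. Tgfb1, Nrros, Tgfbr1, Tgfbr2 and Ski sit highest in microglia, Tgfb2 in endothelial cells and Ltbp1 in OPC, each in all 11 mice.

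Shares of nuclei with a UMI, taken at equal depth, set microglia against excitatory neurons, the only types thinned. They do not bear on the order of microglia against the other types. Thinning sets aside the greater depth of the neurons, so these shares do not give molecules per nucleus. After each nucleus was thinned to 1000 UMIs, a UMI of Tgfbr1 was found in 80.7 ± 4.999% of microglia of non-Tg mice, against 0.845 ± 0.328% of excitatory neurons, a cell type with little of this transcript. The shares were 43.0% against 0.281% for Tgfbr2, 22.9% against 0.735% for Nrros and 19.1% against 0.0391% for Tgfb1. Ski was found in 41.7% against 11.8%, Smad3 in 27.6% against 14.2%, Smad7 in 11.9% against 2.05% and Smad2 in 9.26% against 3.61%. For Tgfb2 (0.337% against 0.583%) and Ltbp1 (0.934% against 1.95%) the share in microglia was below that in neurons, and no expression in microglia is read from it. Before thinning, the microglial shares were 92.6% for Tgfbr1, 63.5% for Tgfbr2, 39.5% for Nrros and 33.4% for Tgfb1. Median depth was 1445.5 to 2492.5 UMIs per nucleus in microglia and 9184.5 to 14599 in excitatory neurons.

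Within the neurons several members varied between sub-clusters, which are given by their leading genes and as CPM pooled over all mice. Of 12 excitatory sub-clusters, the one led by Col24a1, Nr4a2 and Col11a1 had the highest Ltbp1, at 107 CPM (47.4 to 171 over the mice), and the one led by Gm20752, Gm40331 and Rorb the lowest, at 2.78 (at most 4.92 in any mouse). Smad3 was also highest in the Col24a1 sub-cluster, at 274 CPM (146 to 516), and lowest in the one led by Fyb2, Ntng1 and Ankfn1, at 5.78. By contrast Smad2 stayed between 32.2 and 46.0 and Ski between 92.5 and 164 over the 12. Tgfbr1 ranged from 2.48 in the sub-cluster led by Gm765, Igfn1 and Ccbe1 to 29.3 in the one led by Il1rapl2, Scube1 and Deptor. Among 4 inhibitory sub-clusters, the one led by Kcnmb2, Tmem132c and Btbd11 had the highest Ltbp1 (58.7 CPM, 42.7 to 69.4 over the mice) and the highest Tgfbr2 (28.8 CPM, 19.8 to 36.5). Both were lowest in the one led by Tacr1, Baiap3 and Nos1, at 13.2 and 5.05.

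The 2 fibroblast sub-clusters divided in the same way. Smad3 was at 471 CPM in the sub-cluster led by Slc6a20a, Ranbp3l and Lama1 against 103 in the one led by Bnc2, Slc47a1 and Adamtsl3, and Ltbp1 at 135 against 15.7. Tgfbr1 (246 against 351) and Tgfbr2 (129 against 171) were instead higher in the Bnc2 sub-cluster. For all 4 genes the ranges over the mice overlapped, with Smad3 and Ltbp1 at 0 in the lowest mouse of the Slc6a20a sub-cluster. Its median over the mice was 436 for Smad3 and 112 for Ltbp1, against at most 224 and 27.9 in any mouse of the Bnc2 sub-cluster, and 1 library held only 2 fibroblast nuclei in all.

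For the proximal promoters, the core GAGGAA bound by PU.1, a transcription factor of the myeloid lineage, was searched on both strands of the 250 bases before each annotated start (RefSeq, GRCm38.p6). It was present in 23.3% of all 32851 windows. Of the members searched, those of Tgfbr2 and Tgfb2 held it in their only window and Tgfbr1 and Ltbp1 in the second of 2 windows, and those of Tgfb1, Nrros, Ski and Smad3 did not. The windows of Tgfbr2 (chr9:116175364-116175613, minus strand) and Tgfb2 (chr1:186705990-186706239, minus strand) are shown, chosen after the search, because each is its gene's only window and holds the core, with microglia as the highest type for one gene and the lowest for the other. Tgfb1, Nrros and Ski, whose windows lacked the core, were also highest in microglia, as was Tgfbr1. Capitals mark the core, which reads TTCCTC where it lies on the other strand.
Tgfbr2: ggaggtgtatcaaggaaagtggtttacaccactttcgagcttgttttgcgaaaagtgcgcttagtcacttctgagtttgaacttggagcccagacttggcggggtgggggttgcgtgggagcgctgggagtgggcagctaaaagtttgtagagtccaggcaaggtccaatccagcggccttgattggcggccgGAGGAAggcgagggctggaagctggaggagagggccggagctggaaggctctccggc
Tgfb2: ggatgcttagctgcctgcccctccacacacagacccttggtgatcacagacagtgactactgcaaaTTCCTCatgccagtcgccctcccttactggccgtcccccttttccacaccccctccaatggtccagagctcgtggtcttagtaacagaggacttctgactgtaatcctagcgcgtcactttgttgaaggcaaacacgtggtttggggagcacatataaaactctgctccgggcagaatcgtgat
The core lay 57 bases before the start of Tgfbr2 and 184 before that of Tgfb2. CAGAC, the Smad box, was in 42.2% of all windows, and in those of Tgfbr2, Tgfb2 and Nrros among the members with a single window.

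The genes most alike in level were found by Pearson's r of log2(CPM + 1) over 110 mouse-by-type values, among 9789 genes, as a description, since the points of 1 mouse share a library. Closest to Tgfb1 were AU020206 (r = 0.93), the kinase Lyn (0.92) and F11r (0.91). Tgfbr2 ran closest to Anxa3 (0.93) and Lrrk1 (0.93), and Tgfbr1 to Rrbp1 (0.91), Gdi2 (0.89) and the protease Adam17 (0.89). For Nrros they were Naip2 (0.80), the phosphatase Inpp5d (0.78) and Cyfip1 (0.77). Those of Ski were Nfam1, Maml3 and Grb2, each at 0.82. Tgfb2 was closest to Myo10 (0.85) and Ltbp1 to Mtss1l (0.77). Smad2 was nearest to Cwf19l2 (0.87), Smad3 to Capzb (0.77), with Pmepa1, an inhibitor of the pathway, second (0.73), and Smad7 to Itsn2 (0.84).

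Between genotypes, no member was called in microglia. The filter on low counts, which 8943 genes passed, kept 8 of the 10 members, Tgfb2 and Ltbp1 having 44 and 80 UMIs in microglia of all 11 mice. By edgeR's quasi-likelihood test, with a call at an adjusted p under 0.05 and an absolute log2 fold change over 0.1, 0 of the 8 were called in P301S against non-Tg (0.168% of all genes tested were called), in Ikbkb-/-;P301S against P301S (0%), in IkbkbCA;P301S against P301S (1.64%) or in IkbkbCA;P301S against non-Tg (3.94%). The same held for Ikbkb-/-;P301S against non-Tg (0%) and for IkbkbCA;P301S against Ikbkb-/-;P301S (2.09%). At an unadjusted p under 0.05, 1 member in 1 of these 6 comparisons was found, Nrros in IkbkbCA;P301S against non-Tg, at −0.45, where 1222 of the 8943 genes tested passed that threshold (482 to 1252 over the 6 comparisons), and DESeq2 called none.

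The values per mouse that follow are CPM after edgeR's scaling of the libraries. Tgfb1 was at 207, 198, 227 and 327 in non-Tg mice, 210, 213 and 225 in P301S, 188 and 226 in Ikbkb-/-;P301S and 197 and 190 in IkbkbCA;P301S mice. Both IkbkbCA;P301S values lay under all non-Tg and all P301S values, by a small margin against the floxed mice. Among non-Tg and P301S mice, Tgfb1 was at 198 to 213 in the 4 floxed mice. It was at 225 to 327 in the 3 activeIKK mice, the line of both IkbkbCA;P301S mice. The log2 fold change (± SE) against non-Tg was −0.32 ± 0.17 (adjusted p = 0.424) and against P301S −0.17 ± 0.18 (adjusted p = 0.957).

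Nrros was at 386, 371, 269 and 198 in non-Tg, 254, 276 and 277 in P301S, 321 and 209 in Ikbkb-/-;P301S and 190 and 252 in IkbkbCA;P301S mice. The non-Tg values spanned those of nearly every other mouse. Nrros had the greatest difference of any member in microglia, −0.45 ± 0.21 in IkbkbCA;P301S against non-Tg (unadjusted p = 0.0435 and adjusted p = 0.347 by edgeR), which was −0.25 with the breeding line as a covariate. Within the lines, P301S differed from non-Tg by −0.50 in the floxed and 0.30 in the activeIKK mice, and the difference between lines, 0.80, had an adjusted p of 0.190 by edgeR. The activeIKK value rests on 1 P301S mouse, which that fit takes to vary like the other groups.

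The receptors came next. Tgfbr1 was at 2424, 2097, 2213 and 1987 in non-Tg, 2258, 2209 and 2173 in P301S, 1555 and 2300 in Ikbkb-/-;P301S and 2313 and 2066 in IkbkbCA;P301S mice. Only the first Ikbkb-/-;P301S mouse lay outside 1987 to 2424. Without that mouse the log2 fold change of Ikbkb-/-;P301S against P301S went from −0.20 to 0.05. Tgfbr2 was at 788, 691, 537 and 550 in non-Tg, 569, 782 and 704 in P301S, 685 and 625 in Ikbkb-/-;P301S and 654 and 749 in IkbkbCA;P301S mice. All 4 ranges overlapped. P301S differed from non-Tg by −0.11 in the floxed mice and by 0.40 in the activeIKK mice, the latter again on 1 P301S mouse (adjusted p of the difference 0.430).

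Smad3 was at 340, 353, 284 and 407 in non-Tg, 293, 295 and 331 in P301S, 376 and 379 in Ikbkb-/-;P301S and 323 and 369 in IkbkbCA;P301S mice. Both Ikbkb-/-;P301S values were above all P301S values, and the difference of 0.29 ± 0.15 was not called (adjusted p = 0.589). Smad2 was at 128, 117, 96.9 and 74.7 in non-Tg, 122, 120 and 106 in P301S, 90.6 and 106 in Ikbkb-/-;P301S and 117 and 109 in IkbkbCA;P301S mice. The non-Tg mice covered the lowest and the highest value. Among non-Tg and P301S mice the breeding lines were separate for Smad2, at 117 to 128 in the 4 floxed and 74.7 to 106 in the 3 activeIKK mice.

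Among the inhibitors, Smad7 was at 128, 117, 143 and 149 in non-Tg, 135, 159 and 154 in P301S, 130 and 128 in Ikbkb-/-;P301S and 127 in each IkbkbCA;P301S mouse. The 3 P301S mice lay above all 4 mice with a changed Ikbkb, with differences of −0.22 ± 0.17 (adjusted p = 0.697) and −0.25 ± 0.16 (adjusted p = 0.757). Ski was at 568, 591, 476 and 730 in non-Tg, 586, 584 and 494 in P301S, 563 and 675 in Ikbkb-/-;P301S and 468 and 598 in IkbkbCA;P301S mice, and all 4 ranges overlapped.

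**Figure D2:**
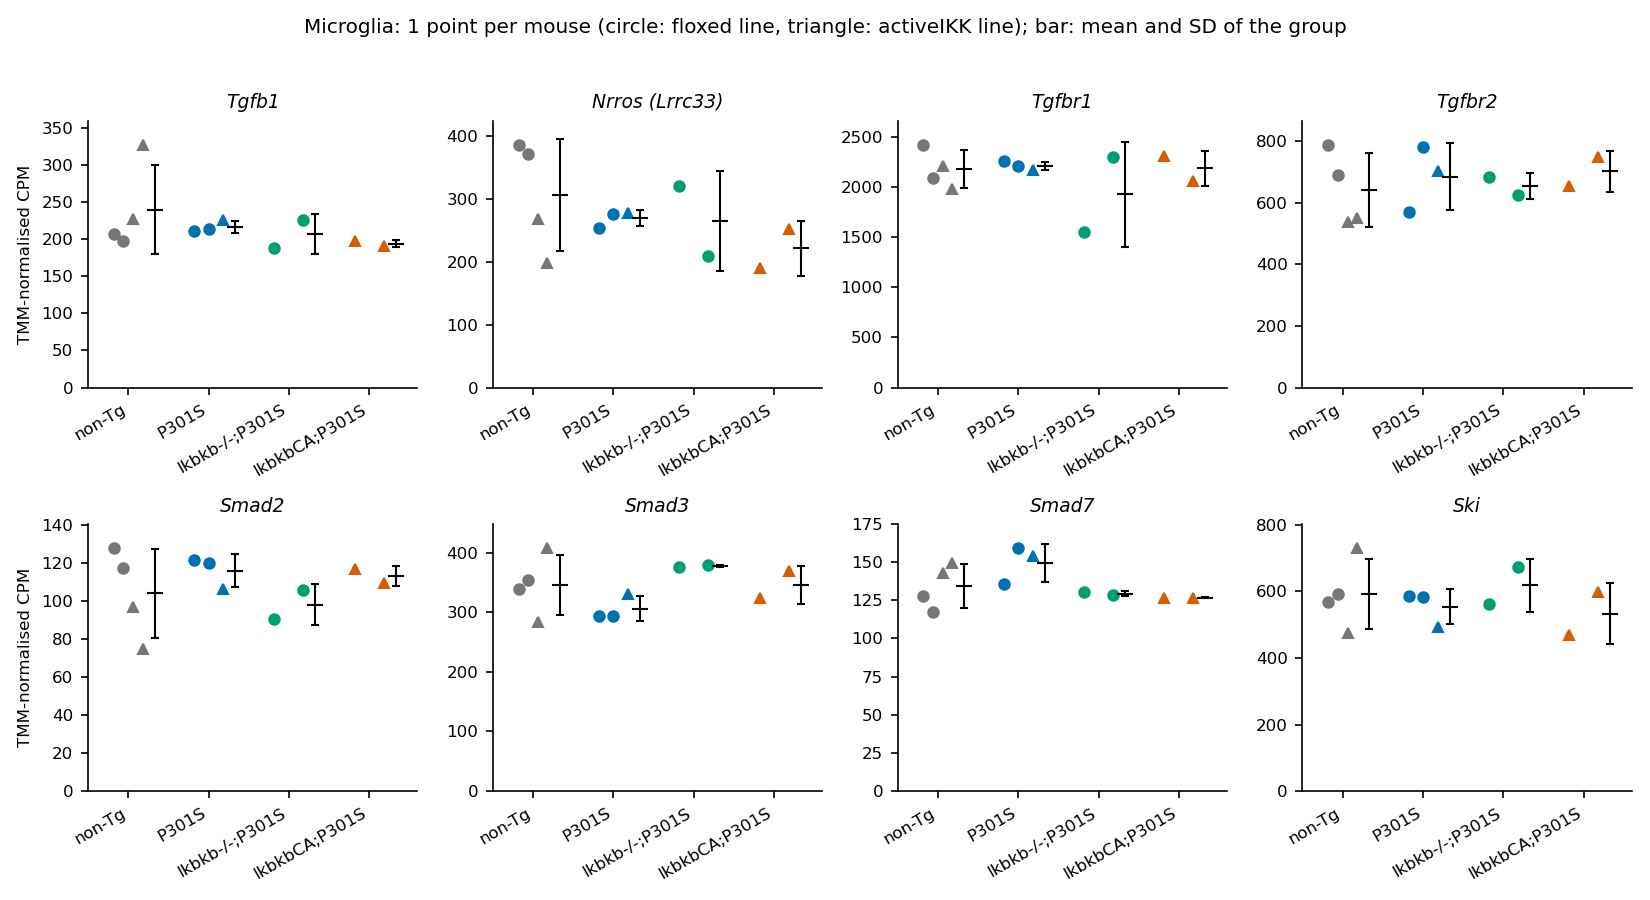
Level in microglia (CPM after library scaling) of the 8 members tested, 1 point per mouse in 4 genotypes, circles for the floxed and triangles for the activeIKK line, with bars at mean ± SD. All groups overlap for Tgfbr1, Tgfbr2 and Ski, at least 1 pair of groups is separate for each of the other 5, and the first Ikbkb-/-;P301S mouse is low for Tgfbr1 at 1555.

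Group ranges that did not overlap were frequent among all genes. In P301S against non-Tg 0 of 8 members were separate (6.15% of all genes), in Ikbkb-/-;P301S against P301S 3 of 8 (Smad3 above, Smad2 and Smad7 below, 25.4%), in IkbkbCA;P301S against P301S 3 of 8, all below (Nrros, Smad7 and Tgfb1, 22.6%), and in IkbkbCA;P301S against non-Tg 1 of 8 (Tgfb1, below, 19.9%). They were 0 of 8 in Ikbkb-/-;P301S against non-Tg (13.8%) and 3 of 8 in IkbkbCA;P301S against Ikbkb-/-;P301S (Smad2 above, Smad3 and Smad7 below, 46.8%). The groups of that last comparison also differ wholly in breeding line and age. The median log2 fold change of the 8 members lay between −0.08 and −0.03 over all 6 comparisons, beside −0.02 to 0.01 for all genes. How large a change the data leave room for is given by the 95% intervals. These reached at most from −0.56 to 0.53 for P301S against non-Tg, −0.67 to 0.61 for Ikbkb-/-;P301S against P301S, −0.75 to 0.48 for IkbkbCA;P301S against P301S and −0.89 to 0.53 for IkbkbCA;P301S against non-Tg. A doubling or halving therefore lay outside the intervals of the 8 members tested, while smaller changes of the members lay inside them. Tgfb2 and Ltbp1 have no such interval.

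**Figure D3:**
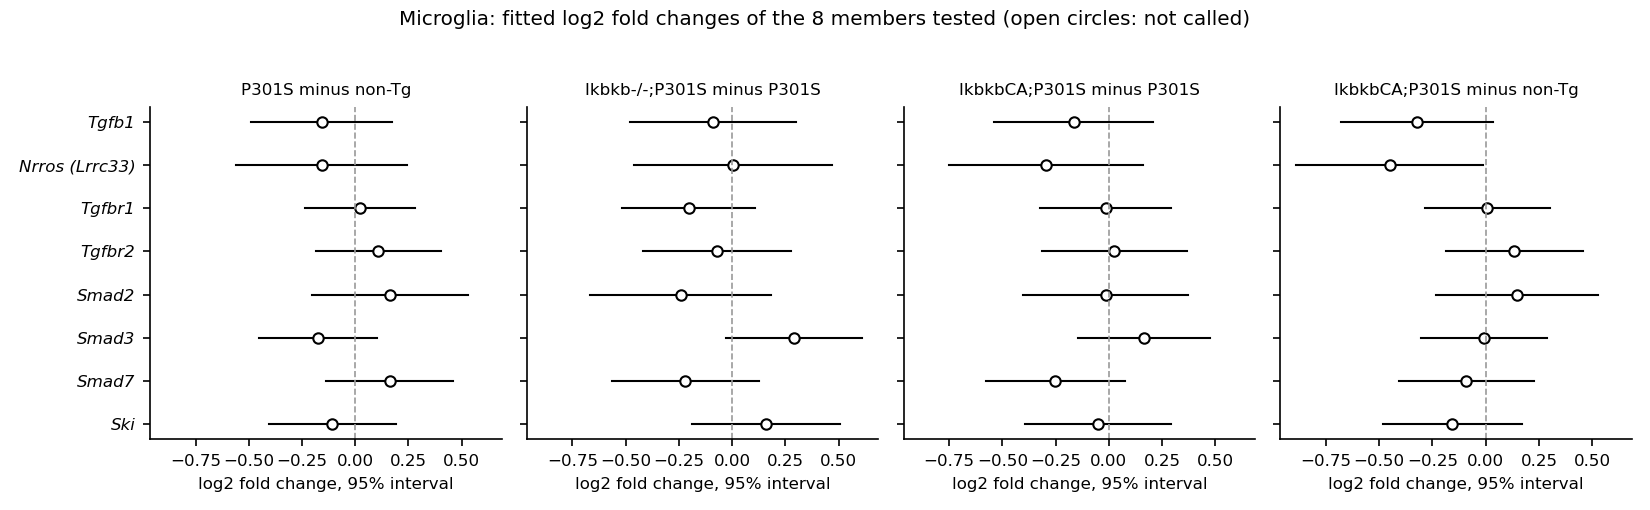
Log2 fold change in microglia of the 8 members in 4 comparisons, points with 95% intervals from edgeR, open because none was called. All intervals lie between −0.89 and 0.61, and that of Nrros in IkbkbCA;P301S against non-Tg is the only one to leave out 0.

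The share of microglia with a UMI of a member, at 1000 UMIs per nucleus, was compared by mouse. The smallest p of any member over 3 comparisons was 0.2 by a two-sided exact permutation test of mice. That is the lowest p this test can give for 3 against 2 mice, so it could call no difference there. The widest difference was in Tgfbr1, 74.7% in Ikbkb-/-;P301S against 82.0% in P301S mice.

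Striatal projection neurons were not tested between genotypes. In the other cell types no member was called either, in P301S against non-Tg, Ikbkb-/-;P301S against P301S or IkbkbCA;P301S against P301S. Few genes of any kind were. The shares of all genes called in those 3 comparisons were 0.0331%, 0% and 0.00552% in excitatory neurons (10 members tested), 0.0129%, 0% and 0% in inhibitory neurons (9 members), and 0% in each in astrocytes (10 members). They were 0.0077%, 0% and 0.0154% in oligodendrocytes (9 members), 0.00988%, 0% and 0% in OPC (7 members), and 0%, 0% and 0.0107% in the pooled vascular cells (endothelial, mural and fibroblast, 10 members). By edgeR, 12 of 165 member tests (7.27%) had an unadjusted p under 0.05, beside 6.23% of the tests of all genes in the same 18 comparisons, and their adjusted p ran from 0.274 to 0.976.

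Tgfb2 in astrocytes, second by level, was at 62.1, 70.5, 72.6 and 61.6 in non-Tg, 68.5, 59.4 and 73.7 in P301S, 65.0 and 59.6 in Ikbkb-/-;P301S and 51.2 and 53.2 in IkbkbCA;P301S mice. Both IkbkbCA;P301S mice were the lowest of the 11, with −0.37 ± 0.14 against P301S (adjusted p = 0.916). Nrros in astrocytes was at 90.6 in the first P301S mouse and between 14.7 and 42.3 in the other 10, and its 0.89 ± 0.41 in P301S against non-Tg (adjusted p = 0.976) rests on that mouse, the other P301S mice having 24.6 and 23.7. Ski in oligodendrocytes was at 92.3 and 80.5 in Ikbkb-/-;P301S against 65.1, 65.0 and 78.1 in P301S mice (0.32 ± 0.14, adjusted p = 0.370), and the non-Tg mice reached 86.6. Ltbp1 in the same cells gave 0.66 ± 0.29 for that comparison (adjusted p = 0.357).

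Of the rest, Smad2 in Ikbkb-/-;P301S against P301S mice gave −0.37 ± 0.16 in astrocytes (adjusted p = 0.525) and −0.41 ± 0.20 in OPC (adjusted p = 0.622). In IkbkbCA;P301S against P301S mice, Smad7 in OPC gave 0.61 ± 0.26 (adjusted p = 0.969) and Nrros in inhibitory neurons −0.75 ± 0.32 (adjusted p = 0.855). Tgfb1 in excitatory neurons gave 0.98 ± 0.39 (adjusted p = 0.823), at levels under 1 CPM in every mouse. None of these was called.

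Among vascular cells, Tgfbr1 was at 131 and 145 in IkbkbCA;P301S mice, under all other mice (155 to 280), with −0.69 ± 0.24 against P301S (adjusted p = 0.274). Smad3 gave −0.63 ± 0.25 (adjusted p = 0.346) and Smad7 0.89 ± 0.34 (adjusted p = 0.319). The makeup of this pool moved with them: the first IkbkbCA;P301S mouse had 2 fibroblast nuclei, where the other mice had 35 to 137, and the part of that shift in these values was not tested.

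Other genes of the pathway were taken from lists. In microglia, 6 of 14 genes that hold or activate latent TGF-beta, 12 of 14 further receptor and transducer genes, 14 of 16 inhibitors, 9 of 16 activin and BMP genes and 4 of 15 general targets (14 of which were found) passed the filter. None was called in P301S against non-Tg, in Ikbkb-/-;P301S against either control or in IkbkbCA;P301S against P301S. In IkbkbCA;P301S against non-Tg 2 rose and 1 fell, where 2.48% of all genes were called higher and 1.45% lower. Mmp14, a membrane protease able to free TGF-beta, was at 21.5 and 37.3 CPM against 5.43, 17.3, 13.2 and 7.33 in non-Tg mice (1.41 ± 0.38, adjusted p = 0.0389). Those non-Tg values rest on few UMIs. Smurf1, a ubiquitin ligase that removes receptors and Smads, was at 310 and 381 against 209, 192, 231 and 277 (0.59 ± 0.15, adjusted p = 0.0300). Among non-Tg and P301S mice, Smurf1 was at 192 to 229 in the 4 floxed mice and 231 to 277 in the 3 activeIKK mice. The part of the breeding line in its rise was not tested.

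Pmepa1, which binds Smad2 and Smad3 and is itself induced by TGF-beta, fell from 530, 653, 515 and 828 CPM in non-Tg to 371 and 428 in IkbkbCA;P301S mice (−0.67 ± 0.18, adjusted p = 0.0387). Its value in the activeIKK-line P301S mouse was 386, and 558 and 543 in the floxed P301S mice. Against Ikbkb-/-;P301S mice, Tgif1, a repressor of Smad targets held in both the inhibitor and the target list, was higher in IkbkbCA;P301S mice (22.1 and 16.2 against 3.39 and 6.21 CPM, 2.14 ± 0.56, adjusted p = 0.0460), where 1.39% of all genes were called higher. The Tgif1 values of the Ikbkb-/-;P301S mice rest on few UMIs, and its highest value, 34.0, was in a P301S mouse.

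The microglial genes known to need TGF-beta were the list with the most calls. All 16 were tested, and 0 were called by edgeR in P301S against non-Tg or in Ikbkb-/-;P301S against either control. In P301S against non-Tg 12 of 16 had a negative log2 fold change, with a median of −0.24, which was 0.02 without the third P301S mouse and −0.03 without the second and −0.14 without the first non-Tg mouse. In Ikbkb-/-;P301S the medians were 0.01 against P301S and −0.09 against non-Tg. In IkbkbCA;P301S against non-Tg 5 of 16 fell (1.45% of all genes were called lower), and 14 of the 16 had a negative log2 fold change, with a median of −0.51 beside −0.01 for all genes tested. That median was −0.31 without the second and −0.71 without the first IkbkbCA;P301S mouse, and −0.38 with the breeding line as a covariate. Against P301S mice 1 of 16, Fcrls, fell (0.559% of all genes lower), with a median of −0.29, which was −0.16 without the second and −0.45 without the first IkbkbCA;P301S mouse. Against Ikbkb-/-;P301S mice 2 of 16, Fcrls and Gas6, fell (0.704% lower). That count was 1 (Fcrls) without the first Ikbkb-/-;P301S mouse, 3 with DESeq2, 5 with no filter on low counts, and 0 with the breeding line or age as a covariate. Beside them, the genes of any kind called lower went from 63 of 8943 to 32 of 9379, 53 of 8943, 157 of 20532 and, with line or age, 13 and 2 of 8943. Both line and age differ wholly between these 2 groups and cannot be told apart from the genotype. The list was drawn up with earlier results of these data known and is no independent evidence of its direction.

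Fcrls, an Fc receptor-like gene of microglia, was at 516, 532, 110 and 243 CPM in non-Tg, 348, 454 and 58.0 in P301S, 396 and 513 in Ikbkb-/-;P301S and 28.9 and 46.5 in IkbkbCA;P301S mice. The IkbkbCA;P301S mice were the lowest of the 11 (−3.21 ± 0.61 against non-Tg, adjusted p = 0.0025, and −2.83 ± 0.63 against P301S, adjusted p = 0.0191). The breeding line moved with this gene: all 5 activeIKK mice (28.9 to 243) were below all 6 floxed mice (348 to 532). With the line as a covariate Fcrls was the 1 gene of the list still called against non-Tg, and 0 were called against P301S.

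Gas6, a ligand of the phagocytic receptor Mertk, was at 62.5, 102, 66.1 and 51.3 CPM in non-Tg and 32.6 and 26.1 in IkbkbCA;P301S mice (−1.25 ± 0.29, adjusted p = 0.0142), with 33.2, 84.6 and 51.4 in P301S mice. Slc2a5, a fructose transporter, was at 147, 156, 103 and 116 against 78.0 and 52.1 (−0.99 ± 0.26, adjusted p = 0.0353), and the activeIKK-line P301S mouse was at 69.4. Among non-Tg and P301S mice, Slc2a5 was at 124 to 156 in the 4 floxed mice and 69.4 to 116 in the 3 activeIKK mice. Siglech, a lectin used as a microglial marker, was at 959, 841, 735 and 818 against 643 and 460 (−0.60 ± 0.14, adjusted p = 0.0164), and all 3 P301S mice lay between, at 692 to 705. Cx3cr1, the fractalkine receptor, was at 1024, 735, 885 and 850 against 672 and 531 (−0.54 ± 0.15, adjusted p = 0.04005). The Cre takes 1 copy of Cx3cr1 in these mice and in no non-Tg mouse. Against non-Tg, the allele, the tau transgene and the active IKKβ therefore cannot be told apart for that gene. It was at 738, 652 and 790 in P301S mice, which lack the Cre, and at 803 and 716 in Ikbkb-/-;P301S mice, which carry it.

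**Figure D4:**
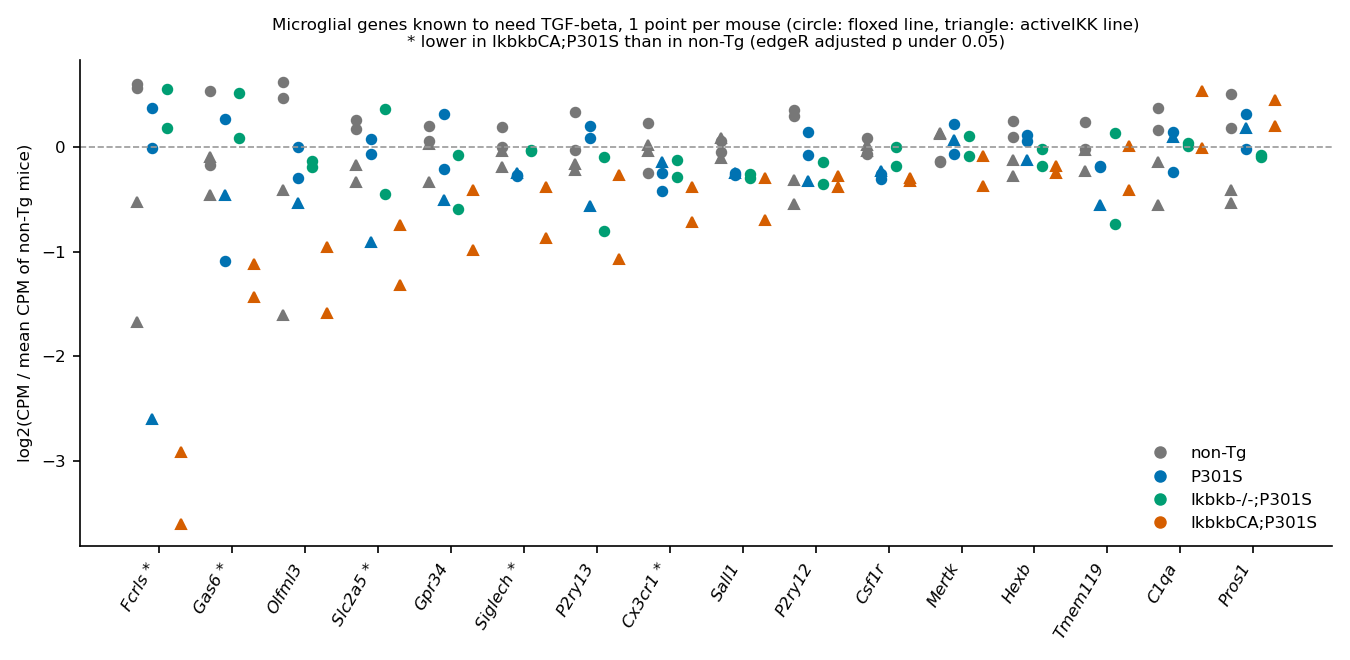
The 16 microglial genes known to need TGF-beta, as log2 of the level in each mouse over the mean of the 4 non-Tg mice, with an asterisk on the 5 called lower in IkbkbCA;P301S against non-Tg. The IkbkbCA;P301S mice are lowest for Fcrls, at 28.9 and 46.5 CPM, while the members themselves were called in no comparison.

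The count of 5 called against non-Tg fell to 1 without the second IkbkbCA;P301S mouse, to 2 without the first non-Tg mouse, to 3 without the second non-Tg mouse and to 2 with nuclei thinned to 1000 UMIs. All genes called lower went with it, from 130 of 8943 to 47 of 9351, 85 of 9100, 78 of 9158 and 84 of 6804. Against P301S the count of 1 was 0 without the first or the second P301S mouse or without either IkbkbCA;P301S mouse, and 2 without the third P301S mouse, where all genes called lower went from 50 of 8943 to between 20 and 41 for those 4 mice and to 89 of 8654 for the last.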

How the data were processed

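Nuclei of the cortex of 11 mice were sequenced with Chromium droplet libraries. The deposited files hold UMI counts per gene and barcode, which the authors made with Cell Ranger 3.1.0 on mm10, counting reads on pre-mRNA, so unspliced transcripts are included. The authors used Seurat for clustering, and no annotation of nuclei was used here. All columns of values were used. Barcodes with 300 to 8000 genes and at most 5% mitochondrial counts were kept, simulated-doublet scores removed 9474 (8.42%), and clusters (2000 variable genes without the members, 15 components, 20 neighbours, Leiden resolution 0.1) were named from markers. Counts were summed per mouse and cell type and tested with edgeR 4.0.16 (TMM, filterByExpr, quasi-likelihood, 1 term per genotype, Benjamini-Hochberg), with DESeq2 1.42.0 as an alternative. The labels do not say whether mice of a group were littermates. Gene positions are from GENCODE M21 (GRCm38), promoters from RefSeq. The members and lists were chosen with earlier results of these data known. All 10 members are named, and of other lists only called genes. Tests were checked on simulated data. Title numbers repeat across groups. Deviations from the group mean correlated at −0.091 to 0.11 over 10 same-numbered pairs of 1 line, and at −0.11 to 0.091 over 10 other pairs. With 2 mice in a group these values mirror each other, so whether the numbers pair mice is not settled. Same-numbered non-Tg and IkbkbCA;P301S mice of the activeIKK line had the same age (10.85 and 9.8 months). Intervals are for the difference between groups, with the spread between mice estimated over all genotypes together. They hold no term for line or age.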

Additional observations from a re-analysis of the deposited data

Results flagged for a closer look

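Among 99 sets of 4 non-Tg values (a member in a cell type), 5 had 1 mouse far from the other 3 by Dixon's criterion at its 95% value, where chance gives about 1 in 20. Ski in inhibitory neurons was at 143 CPM in replicate 4 and 98.8 to 105 in the others. Tgfbr1 in striatal projection neurons was at 6.19 CPM in replicate 3 (21 UMIs) and 9.05 to 9.36 in the others. In OPC, Tgfbr1 was at 52.2 CPM in replicate 1 (65 UMIs) and 63.8 to 64.5 in the others. Tgfbr2 in endothelial cells was at 288 CPM in replicate 2 (33 UMIs) and 148 to 164 in the others. In fibroblasts, Ski was at 191 CPM in replicate 4 (25 UMIs) and 144 to 148 in the others.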

How the results depend on the processing

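The alternatives were DESeq2, no filter on low counts, upper-quartile scaling, the breeding line or age as a covariate, a replicate block, only the groups compared, doublets kept, thinned nuclei and each mouse left out. Removing nuclei with border macrophage markers, and the 2 counts for genes needing TGF-beta, were added after seeing the data. Of 150 counts of called members, 148 were unchanged at 0 and 2 moved: without the filter Nrros was called in astrocytes, giving 1 for P301S minus non-Tg and 1 for IkbkbCA;P301S minus P301S. All 135 counts with a mouse left out were 0. Whether the numbers in the titles pair the mice is not known. The replicate block took each number as 1 level across both lines. With the replicate block 0 members were called in all 24 fits, and in microglia 664 genes in place of 701 over the 6 comparisons.

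Some log2 fold changes in microglia changed sign, none of them called. For Ikbkb-/-;P301S minus P301S these were Ski with age (−0.11), Tgfb1 with line (0.035), and Nrros with DESeq2 (−0.014), line (−0.15), age (−0.20), only the groups compared (−0.012), doublets kept (−0.012) and no border macrophages (−0.020). For IkbkbCA;P301S minus P301S they were Tgfbr1 with no filter (0.017), line (0.037) and thinning (0.0049), Ski with age (0.0087), Tgfbr2 with doublets (−0.028), and Smad2 with no filter (0.011), line (0.19) and thinning (0.21). Leaving out a mouse gave, for P301S minus non-Tg, Tgfbr1 −0.018 to 0.084, Ski −0.20 to 0.019 and Tgfb1 −0.24 to 0.049. For Ikbkb-/-;P301S minus P301S it gave Tgfbr1 −0.51 to 0.049, Tgfb1 −0.21 to 0.046, Tgfbr2 −0.19 to 0.029 and Nrros −0.38 to 0.24. For IkbkbCA;P301S minus P301S it gave Tgfbr1 −0.098 to 0.045, Ski −0.26 to 0.12, Tgfbr2 −0.10 to 0.12 and Smad2 −0.12 to 0.017.

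Shares thinned to 500 UMIs changed sign, in percentage points, for P301S minus non-Tg in Tgfb1 (1.23), Nrros (−0.589), Ltbp1 (0.0562), Tgfbr1 (−0.676) and Smad2 (−0.0384), for Ikbkb-/-;P301S minus P301S in Tgfb2 (0.0449), Tgfbr2 (0.165) and Smad2 (1.74), and for IkbkbCA;P301S minus P301S in Ltbp1 (0.588), Tgfbr1 (−3.49), Smad7 (−1.34) and Ski (1.87). None of these was called.

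In Ikbkb-/-;P301S against P301S, 1 of the 16 genes needing TGF-beta was called higher with no filter. For IkbkbCA;P301S, genes needing TGF-beta called lower against P301S numbered 0 with DESeq2, 3 with no filter, 0 with line and 0 to 2 with a mouse left out. Against non-Tg they numbered 1 with line, 2 with thinning, 4 with the replicate block or doublets kept, 5 with DESeq2, 6 with age, upper-quartile scaling, only the groups compared or no border macrophages, 7 with no filter, and 1 to 6 with a mouse left out. The causes were not tested. Of 200 levels by cell type, 191 moved by less than 1 SD and 9 by more, all with doublets kept. Precision is limited by 2 mice in each changed-Ikbkb group and by 189 microglia in the smallest library.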
